A study of Mus musculus with 24 samples.

Results

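Ribosome footprints of 8 macrophage cultures were compared here between the first and the second batch of a ribosome profiling study of the RNA-editing enzyme APOBEC1. All 8 footprint libraries that the labels place in batch 1 or batch 2 were taken, of 24 libraries in the series. Batch 1 held 1 Apobec1 -/- culture (KO1) and 3 wild-type cultures (WT1, WT2 and WT3). Batch 2 held 3 Apobec1 -/- cultures (KO2, KO3 and KO4) and 1 wild-type culture (WT4). All were bone-marrow-derived macrophages from C57BL/6J mice aged 6 to 12 weeks, grown for 7 days with M-CSF at 20 ng/mL, which turns marrow precursors into macrophages. Footprint and total RNA libraries of all cultures were made with the TruSeq Ribo Profile kit. The labels name the batches by number only and do not say what a batch shares, so a difference between batches is a difference between these 2 sets of libraries. Genotype was a term in the models reported here unless another is named, because the batches hold unlike numbers of each genotype. The batch difference within KO cultures rests on KO1 alone for batch 1, and within WT cultures on WT4 alone for batch 2. A fit without WT4 therefore takes its batch difference from KO2, KO3 and KO4 against KO1. A fit without KO1 takes it from WT4 against WT1, WT2 and WT3. Calls kept or lost in such fits rest on 1 library on one side and are not a separate check of a batch difference. The labels do not tie cultures to separate animals, so the p-values reflect the spread among these libraries, and that spread may be technical.

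Ribosome profiling sequences the short mRNA stretches that a translating ribosome shields from nuclease, and the number of footprints on a coding sequence depends on how much of that mRNA a cell holds and on how densely ribosomes load it. Macrophages grown from marrow are derived from proliferating precursors that pass through a monocyte stage, and a culture can keep some cells of the granulocyte lineage. These cells also change their sterol synthesis, interferon response and iron export with culture conditions, so such programmes often differ between preparations.

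The batches differed in depth as well as in content. Batch 1 footprint libraries held 646196, 1996862, 325979 and 999658 counts in genes (KO1, WT1, WT2 and WT3), and batch 2 libraries held 3645699, 955199, 3702252 and 3714912 (KO2, KO3, KO4 and WT4). Reads with several alignments made up 59.3% to 80.1% of the footprint reads in batch 1 and 49.6% to 60.1% in batch 2. Across genes, the first principal component held 39.9% of the variance and placed all batch 1 libraries on one side and all batch 2 libraries on the other, and WT2, the shallowest of the 8, stood apart from the rest of its batch on both leading components. Footprints on Apobec1 itself were 24.6, 99.9, 61.6 and 102 CPM in batch 1 and 4.55, 7.36, 6.09 and 104 CPM in batch 2, in the same library order, which is kept in every list of values that follows. CPM are counts scaled to a common library size with TMM, the trimmed-mean scaling of edgeR. The 4 KO libraries lay below all WT libraries, and KO1 of batch 1 kept more Apobec1 footprints than the KO libraries of batch 2. Total RNA counts on Apobec1 were higher in KO than in WT libraries (1166, 478, 422 and 439 CPM in batch 1 and 1189, 1022, 1297 and 359 CPM in batch 2), and the labels do not name the deleted part of the gene. The macrophage label was carried by its markers, whose summed footprints were 34066 to 40324 CPM in batch 1 and 42488 to 74072 CPM in batch 2. Without lysozyme (Lyz2), which neutrophils also make, the sums overlapped, at 20783 to 26251 CPM in batch 1 and 20010 to 27422 CPM in batch 2. Of the markers of other lineages, 6 of 12 lymphocyte genes had a footprint in some library (summed 6.22 to 11.7 CPM in batch 1 and 8.41 to 12.5 CPM in batch 2), as had 5 of 11 erythroid and megakaryocyte genes (23 to 33.2 CPM in batch 1 and 28.1 to 41.9 CPM in batch 2) and 11 of 14 stromal and endothelial genes (71.3 to 117 CPM in batch 1 and 64.2 to 108 CPM in batch 2). Cd3e, Cd3g, Cd8a, Hba-a1, Hbb-b1 and Col3a1 of these lists were at 0 in all 8 libraries. Kdr of the stromal list read 6.22 to 18.1 CPM in batch 1 and 26.1 to 45.7 CPM in batch 2. Vwf read 58.3 to 89.2 CPM in batch 1 and 24.2 to 63.1 CPM in batch 2. Mast cell and basophil genes summed to 3.24 to 16.3 CPM and 7.36 to 16.6 CPM. Except for Kit, those with a footprint had batch 2 counts only. Dendritic cell genes summed to 695 to 914 CPM and 498 to 1485 CPM. Itgax lay below batch 1 in every batch 2 library, and Ciita above it.

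Of 8740 coding sequences tested, 653 had more footprints in batch 2 (7.47%) and 575 had fewer (6.58%), 1228 in all (14.1%), by edgeR's quasi-likelihood test with Benjamini-Hochberg adjusted p under 0.05. These genes are called higher or lower below, and log2 values are batch 2 over batch 1 with genotype in the model. The median difference over all tested genes was 0.00 on the log2 scale. Among called genes the absolute log2 difference had a median of 0.84, with 5% of genes under 0.49 and 5% above 2.11. A difference of more than 2-fold was estimated for 264 of the genes called higher and 162 of those called lower. The batches did not overlap in CPM for 510 genes called higher and 431 called lower, where over all tested genes 11.3% had every batch 2 library above every batch 1 library and 9.89% had every batch 2 library below. Without WT4, the 1 wild-type library of batch 2, 156 genes were called higher and 195 lower, and 257 of the 1228 calls were kept.

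**Figure D1:**
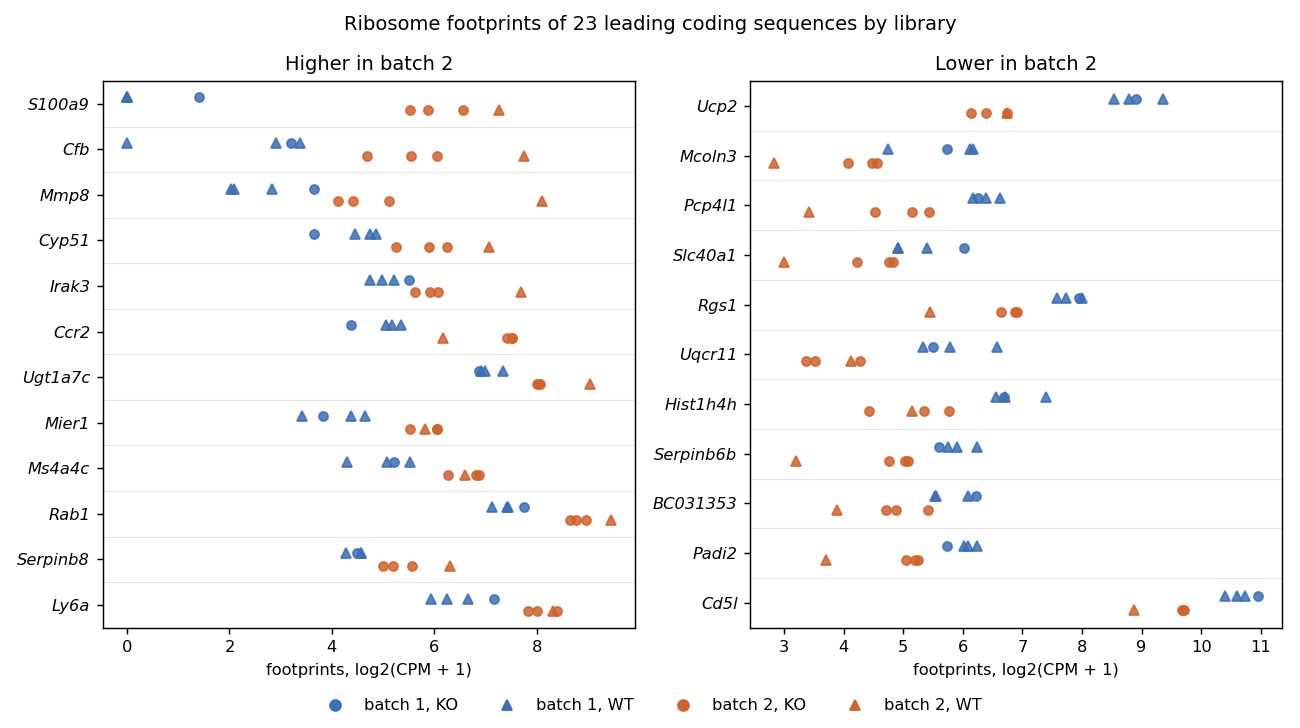
Footprints, as log2(CPM + 1), of 23 leading genes called higher (left) and lower (right) in batch 2, with 1 point per library, batch 1 in blue and batch 2 in orange, KO as circles and WT as triangles. For every gene drawn the 4 batch 2 libraries lie on one side of the 4 batch 1 libraries, as the rule that chose them required, and for Mmp8 WT4 lies far to the right of the other batch 2 libraries.

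Proteins of neutrophil granules and of their precursors had the widest differences. The list of neutrophil and granulocyte-precursor markers had 9 tested members, of which 7 were called higher and none lower, where 7.47% of all tested genes were called higher. Its median log2 difference was 5.91, or 5.31 with the members that had no batch 1 count set at their lower bound. Ngp, Ltf, Lcn2, S100a8 and S100a9, with few or no batch 1 counts, passed the count filter before the test only through batch 2. A lower call was not open to them, so the filter partly set the share of calls and the median. S100a9, a subunit of the calcium-binding neutrophil protein calprotectin, had 1 footprint in all of batch 1 and 1075 in batch 2. By library it stood at 1.64, 0, 0 and 0 CPM in batch 1 and 44.9, 57.8, 93.5 and 154 CPM in batch 2. All batch 2 libraries lay above all batch 1 libraries, and the pooled ratio was 355-fold with an exact 95% interval of 63.6 to 14034 that covers counting error only (edgeR adjusted p = 8.93e-06). Its partner S100a8 read 0, 1.53, 3.24 and 2.07 CPM in batch 1 and 27.8, 29.4, 37.6 and 110.0 CPM in batch 2, a pooled ratio of 35.1 (16 to 95.9; adjusted p = 4.63e-09). Ngp, a granule protein of immature neutrophils, was at 0 in batch 1 and at 385 counts in batch 2, which is at least 42.4-fold higher against a floor of 3 counts over the batch (adjusted p = 8.93e-06). Lactoferrin (Ltf), which binds iron, was likewise at 0 against 362 counts, at least 39.8-fold higher (adjusted p = 0.0151). The granule enzymes Mpo and Prtn3 and the peptide precursor Camp had no batch 1 footprint either and were too low to be tested, with 74, 22 and 30 counts in batch 2.

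Lipocalin 2 (Lcn2), which captures bacterial siderophores, had 2 counts in batch 1 and 573 in batch 2, a ratio of 94.6 (26.1 to 783). It read 0, 1.02, 0 and 0 CPM in batch 1 and 12.8, 38.9, 14.4 and 129 CPM in batch 2, with no overlap between batches (adjusted p = 3.49e-05). Neutrophil collagenase (Mmp8) was much less even within batch 2, at 11.5, 6.12, 3.24 and 3.11 CPM in batch 1 and 20.2, 33.6, 16.3 and 274 CPM in batch 2 (log2 5.01, SE 0.79, adjusted p = 0.0128), so the KO libraries of batch 2 sat just above batch 1 while WT4 sat far above. Csf3r, the receptor for the granulocyte growth factor G-CSF, rose less, at 41.1, 36.7, 32.4 and 19.7 CPM in batch 1 and 70.8, 55.7, 63.4 and 84.7 CPM in batch 2 (log2 1.18, SE 0.23, adjusted p = 0.00208). Mmp9 and Padi4, which macrophages also make, were tested and not called. Summed over the whole marker list, footprints were 79.8 to 107 CPM in the batch 1 libraries and 253, 306, 363 and 942 CPM in KO2, KO3, KO4 and WT4. Ngp, Camp, Ltf, Elane, Mpo, Prtn3, Ctsg and Retnlg were at 0 in every batch 1 library. In bulk cultures, a larger share of cells of a type and more RNA per cell cannot be told apart. Without WT4, 2 of the list's members were called higher and none lower, S100a8 (adjusted p = 0.00222) and Ngp (adjusted p = 0.00670), and Mmp8 was not called without WT1 or WT3 either.

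Monocyte markers were also called higher, where 7.47% of all tested genes were called higher. Of 10 tested monocyte markers, 5 were called higher and none lower (median log2 2.32), and without WT4 3 were called higher, with a median of 0.65. Ccr2, the receptor that brings monocytes out of the marrow, read 19.7, 39.8, 32.4 and 35.2 CPM in batch 1 and 182, 171, 183 and 70.7 CPM in batch 2 (log2 1.69, SE 0.36, adjusted p = 0.0149), with all of batch 2 above batch 1 and a larger log2 difference in KO cultures (3.11) than in WT cultures (0.97). Ms4a4c, a membrane protein of the MS4A family, was more even, at 36.1, 32.6, 45.4 and 18.7 CPM in batch 1 and 116, 75.7, 112 and 95.6 CPM in batch 2 (log2 1.62, SE 0.23, adjusted p = 2.08e-04). The chitinase-like protein Ym1 (Chi3l3) rose from 2 counts to 405, a ratio of 66.9 (18.4 to 554; adjusted p = 7.93e-05). Chi3l3, Plac8 and Vcan passed the count filter only through batch 2. A lower call was not open to them, so the filter partly set the list's share of calls and its median. Chi3l3 has close relatives in the genome, with which it may share reads. Plac8 had 2 counts in batch 1 and 113 in batch 2, a ratio of 18.7 (5.05 to 156). Summed over the list, monocyte markers held 1572 to 1662 CPM in batch 1 and 1931, 2779, 2090 and 2877 CPM in the batch 2 libraries, a narrow range in batch 1 that no batch 2 library entered. Most of that sum was S100a4, at 1396 to 1440 CPM in batch 1 and 1456, 2096, 1606 and 1851 CPM in batch 2. Of the macrophage markers themselves, 2 of 14 were called higher and 2 lower (median -0.10): Lyz2 (lysozyme, which neutrophils also make) and Fcgr1 rose, and Cd68 and Mrc1 fell. Without WT4 none of the macrophage markers was called, and without KO1 5 were called higher. The part of other cell types in the differences that follow was not tested.

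Other leading genes that rose belong to no single programme. Complement factor B (Cfb), a serine protease of the alternative complement pathway, read 8.21, 0, 6.48 and 9.33 CPM in batch 1 and 45.5, 65.2, 24.9 and 215 CPM in batch 2 (log2 5.23, SE 0.95, adjusted p = 0.0226). WT4 was the highest library, and Cfb was not called without it (log2 2.34, adjusted p = 0.481). Irak3, which restrains Toll-like receptor signalling, likewise had its highest value in WT4, at 44.3, 30.6, 25.9 and 36.3 CPM in batch 1 and 59.1, 66.2, 48.4 and 206 CPM in batch 2 (log2 1.92, SE 0.44, adjusted p = 0.0318). The call of Irak3 was also lost without any one of WT1, WT2, WT3, KO2 or KO3, and that of Cfb without WT2, WT3 or KO2. Ugt1a7c, a glucuronosyltransferase that shares exons with other Ugt1a genes so that its reads may be theirs, read 117, 119, 162 and 126 CPM in batch 1 and 267, 258, 263 and 523 CPM in batch 2 (log2 1.64, SE 0.17, adjusted p = 6.90e-06). Mier1, a transcriptional corepressor, read 13.1, 24, 9.72 and 19.7 CPM in batch 1 and 65.4, 45.2, 65.6 and 55.1 CPM in batch 2 (log2 1.63, SE 0.25, adjusted p = 3.73e-04), a log2 difference of 2.05 in KO cultures and 1.66 in WT cultures. Serpinb8, an intracellular protease inhibitor, rose by log2 1.61 (adjusted p = 4.10e-04) and the surface antigen Ly6a by 1.57 (adjusted p = 0.00359). Without WT4, Ly6a kept its call (log2 0.94, adjusted p = 0.0422), and Irak3 (log2 0.35, adjusted p = 0.600) and Serpinb8 (log2 0.75, adjusted p = 0.340) did not.

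The genes of cholesterol synthesis that were called were all called higher. Macrophages make cholesterol from acetyl-CoA through mevalonate, squalene and lanosterol, and the transcription factor SREBP-2 (Srebf2) drives the genes of that route. Of 23 tested genes of the pathway, 10 were called higher, none lower and 13 neither, with 20 differences above 0 and 3 below (median log2 1.37, against 0.00 over all tested genes). At the start of the route, Acat2, which joins 2 acetyl-CoA units, rose by log2 2.93 (adjusted p = 0.0158). It fell under the count filter when WT4 was left out. Phosphomevalonate kinase (Pmvk) rose by 1.37 (adjusted p = 0.00984). Squalene synthase (Fdft1), the first enzyme committed to sterols, read 14.8, 15.8, 9.72 and 11.4 CPM in batch 1 and 21.9, 46.3, 18 and 64.8 CPM in batch 2 (log2 1.90, SE 0.39, adjusted p = 0.00639), with no overlap between batches. Squalene epoxidase (Sqle) read 11.5, 13.3, 3.24 and 14.5 CPM in batch 1 and 30.4, 37.8, 25.2 and 72.7 CPM in batch 2 (log2 2.29, SE 0.29, adjusted p = 7.89e-05). Lanosterol demethylase (Cyp51) read 11.5, 20.9, 25.9 and 28 CPM in batch 1 and 58.8, 74.6, 37.1 and 133 CPM in batch 2 (log2 2.42, SE 0.26, adjusted p = 1.36e-05), without overlap and with log2 differences of 2.15 in KO cultures and 2.38 in WT cultures.

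Later and regulatory members followed. Hsd17b7, a ketosteroid reductase of the last steps, rose by log2 2.25 (adjusted p = 0.0105), and it too fell under the count filter when WT4 was left out. Insig1, which holds SREBP in the endoplasmic reticulum, rose by 1.52 (adjusted p = 0.0252) and Srebf2 by 0.79 (adjusted p = 0.00309). Idi1 and Fdps, which make the isoprenoid units, missed the threshold at similar sizes (log2 2.67, adjusted p = 0.0609 for Idi1 and log2 2.13, adjusted p = 0.0636 for Fdps). The list's median difference was 0.60 in KO cultures and 1.76 in WT cultures. The fit without WT4 tested 21 members, and Acat2 and Hsd17b7 were not among them. Without WT4, 1 of its members, Cyp51, was still called (log2 2.23, adjusted p = 0.0247), and the list's median was 0.33. Without KO1 17 members were called higher, and without WT1 5. In total RNA, 16 of 25 tested members were called higher and none lower, where 13.2% of 11071 genes tested in total RNA were called higher and 10.4% lower.

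**Figure D2:**
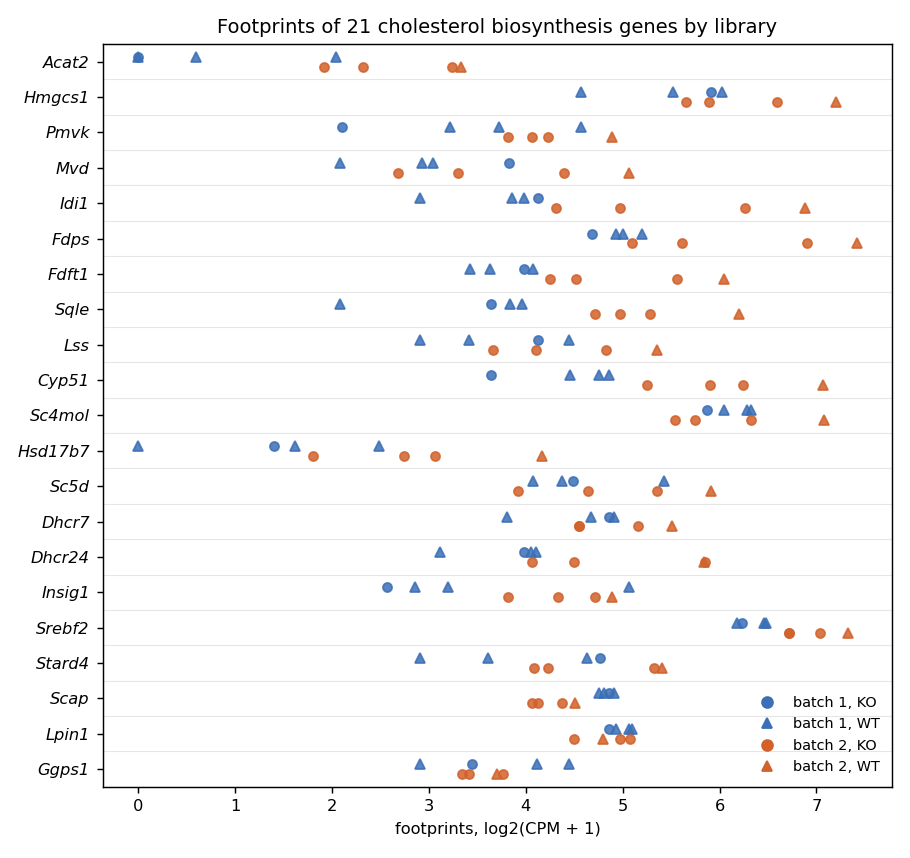
Footprints, as log2(CPM + 1), of 21 of the 23 tested cholesterol biosynthesis genes, with 1 point per library, batch 1 in blue and batch 2 in orange, KO as circles and WT as triangles. WT4 is the highest library for most of the genes called higher, and Cyp51, Fdft1 and Sqle have all batch 2 libraries to the right of batch 1.

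In fatty acid synthesis, 4 of 14 tested members were called higher and 1 lower (median 0.60). Without WT4 1 was called higher, with a median of 0.16, and without KO1 7 were. Fads2, the desaturase that begins the making of long polyunsaturated fatty acids, read 1.64, 5.10, 6.48 and 4.15 CPM in batch 1 and 18.8, 36.8, 18 and 44 CPM in batch 2 (log2 3.20, SE 0.38, adjusted p = 3.49e-05). Its batches did not overlap, and its difference was 3.17 in KO cultures and 2.86 in WT cultures. Fads2 passed the count filter only through batch 2, so a lower call was not open to it. Its log2 difference without WT4 was 3.69, set against 1.64 CPM in KO1. Scd2, a stearoyl-CoA desaturase, rose by log2 2.31 (adjusted p = 0.00993), acetyl-CoA carboxylase (Acaca) by 0.78 (adjusted p = 0.0174) and the elongase Elovl1 by 0.67 (adjusted p = 0.0234). Leaving out WT4 turned the sign of Scd2 (log2 -0.16), with Acaca at 0.21 and Elovl1 at 0.67. Agpat3, an acyltransferase of phospholipid synthesis, fell by 0.96 (adjusted p = 0.00873). Of 17 genes of cholesterol export and its oxysterol receptors, 2 were called lower and none higher. They were Abcg1, the transporter that loads cholesterol onto HDL (log2 -0.81, adjusted p = 0.0311), and the oxysterol receptor Nr1h2 (log2 -1.20, adjusted p = 0.00784). Neither was called without WT4 (log2 -0.23, adjusted p = 0.560 for Abcg1 and log2 -0.80, adjusted p = 0.314 for Nr1h2), and Abcg1 also lost its call without any one of WT1, WT2, WT3 or KO3.

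Of 50 tested interferon-stimulated genes, 15 were called higher and 1 lower (median 0.37). Without WT4, 1 member was called higher and none lower, and the median was 0.17. Zbp1, a sensor of Z-form nucleic acids, read 85.4, 59.1, 68.1 and 48.7 CPM in batch 1 and 125, 161, 145 and 222 CPM in batch 2 (log2 1.45, SE 0.21, adjusted p = 4.18e-04), with no overlap between batches. Iigp1, a GTPase that attacks the vacuoles of intracellular parasites, rose by log2 1.90 (adjusted p = 9.70e-04) and Gbp3, a guanylate-binding protein, by 1.53 (adjusted p = 5.98e-04). Among sensors of double-stranded RNA, Ifih1 (MDA5) rose by 0.86 (adjusted p = 4.86e-04) and Eif2ak2 (PKR) by 0.62 (adjusted p = 0.0119). The antiviral effectors Rsad2, Isg15, Ifit3 and Ifit2 rose by 0.92, 0.80, 0.76 and 0.71. Isg15, the ubiquitin-like modifier, read 289, 194, 259 and 252 CPM in batch 1 and 404, 564, 366 and 453 CPM in batch 2 (adjusted p = 0.00429). Ifitm6, a membrane protein of the antiviral IFITM family that is also a monocyte marker here, read 14.8, 26, 32.4 and 21.8 CPM in batch 1 and 21.6, 27.3, 23 and 87.4 CPM in batch 2 (log2 1.54, SE 0.24, adjusted p = 4.10e-04), and WT4 alone stood well above the others. Of the factors that carry the interferon signal, Stat2 rose by 0.48 (adjusted p = 0.0242), while Irf9, its partner in the same complex, fell by 0.52 (adjusted p = 0.0314). The 1 member called without WT4 was none of the genes named in this paragraph. Their differences were smaller in that fit, such as log2 0.74 for Zbp1, 1.21 for Iigp1 and 0.61 for Isg15.

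Complexes that hold Stat2 and Irf9 bind the interferon-stimulated response element, searched here as GAAA, then any bases at NN, then GAAA, on both strands within the 250 bases before each gene's start, each gene counted once however many matches it held. In RefSeq's promoters (GRCm38.p6), 936 of 27025 genes held it (3.46%), and 244 of the 7103 tested genes with a promoter entry did (3.44%). Among genes called higher 33 of 537 held it (6.15%) and among genes called lower 18 of 466 (3.86%). Of the interferon-stimulated genes with an entry, 6 of the 13 called higher held it (46.2%) and 14 of the 26 others (53.8%), so the share was not larger among the called members of the list. The sequences below show where the element stands in the 6 called members, followed by 2 members, Oas3 and Bst2, that hold it and were not called. They read 5′ to 3′ along the gene's strand, capitals mark the match with overlapping matches joined, and TTTC at the start of a match means that it lies on the opposite strand.
Gbp3: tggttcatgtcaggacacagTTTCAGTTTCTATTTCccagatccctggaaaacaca
Rsad2: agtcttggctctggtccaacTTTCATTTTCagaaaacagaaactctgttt
Oas1g: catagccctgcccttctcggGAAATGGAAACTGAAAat
Isg15: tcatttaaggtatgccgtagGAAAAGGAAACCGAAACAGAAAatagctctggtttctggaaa
Ifit3: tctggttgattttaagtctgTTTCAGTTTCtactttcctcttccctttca
Stat2: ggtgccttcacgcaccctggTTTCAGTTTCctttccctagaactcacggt
Oas3: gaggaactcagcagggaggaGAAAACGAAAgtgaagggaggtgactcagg
Bst2: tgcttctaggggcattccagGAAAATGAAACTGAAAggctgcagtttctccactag
In GRCm38.p6 these stretches lie at chr3:142559979-142560034 (plus strand), chr12:26456543-26456592 (minus), chr5:120887614-120887651 (minus), chr4:156200855-156200916 (minus), chr19:34583387-34583436 (plus), chr10:128270256-128270305 (plus), chr5:120777705-120777754 (minus) and chr8:71537567-71537622 (minus), all upstream of the annotated gene start. Isg15 holds 3 joined matches and Gbp3, Oas1g and Bst2 hold 2. Oas3 (log2 0.02, adjusted p = 0.934) and Bst2 (log2 -0.15, adjusted p = 0.624) were near 0 in footprints with the same element. Oas1g has near-identical neighbours in the Oas1 cluster, so its counts are uncertain. A match in these letters is a description and does not show that a factor bound there.

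Chaperones and folding enzymes of the endoplasmic reticulum rose by modest amounts, 9 of 23 tested members called higher and none lower (median 0.32), with 2 called higher without WT4 and 5 without WT1. Manf, a small protein secreted under reticulum stress, read 83.8, 106, 110.2 and 117 CPM in batch 1 and 158, 199.7, 174 and 227 CPM in batch 2 (log2 1.05, SE 0.15, adjusted p = 1.64e-04). Its batches did not overlap, and its difference was 1.07 in KO cultures and 1.03 in WT cultures. Dnajc3, a co-chaperone that also restrains PKR-like kinases, read 95.3, 96.9, 71.3 and 105 CPM in batch 1 and 141, 167, 148 and 172 CPM in batch 2 (log2 0.78, SE 0.16, adjusted p = 0.00274). The disulfide isomerase Pdia3 rose by log2 0.58 (adjusted p = 0.00569) and kept its call without WT4. BiP (Hspa5), the main chaperone of the reticulum, rose by 0.41 (adjusted p = 0.0404), GRP94 (Hsp90b1) by 0.40 (adjusted p = 0.0410) and calnexin (Canx) by 0.52 (adjusted p = 0.0119). In total RNA 3 of 24 tested chaperones were called higher and 1 lower, where 13.2% of all genes tested in RNA were called higher and 10.4% lower.

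The transport machinery next to it was mixed, with 6 of 32 secretory pathway members called higher and 3 lower (median 0.20). Without WT4 1 was called in each direction, and without any one of KO1, WT1, WT2, WT3, KO2 or KO4 a single member was called lower. Srp14, a subunit of the signal recognition particle, read 60.8, 80, 87.5 and 81.9 CPM in batch 1 and 130.2, 155, 170.5 and 159 CPM in batch 2 (log2 1.1, SE 0.16, adjusted p = 2.77e-04), with no overlap. Sec63, part of the translocation channel, rose by 1.01 (adjusted p = 5.94e-04) and the coatomer subunit Arcn1 by 0.81 (adjusted p = 0.00107). The receptors that return escaped chaperones, Kdelr1 and Kdelr2, fell by 0.47 and 0.54. Of 33 proteasome subunits, 6 were called higher and 1 lower (median 0.17), led by the core subunits Psma7 (log2 0.85, adjusted p = 0.00105) and Psma3 (log2 0.76, adjusted p = 0.00228), and without WT4 1 was called higher. Cytosolic ribosomal proteins went both ways, 15 of 75 higher and 9 lower, with a median of 0.01. Rps15a read 34.5, 41.3, 32.4 and 35.2 CPM in batch 1 and 82.7, 73.6, 73.9 and 99.1 CPM in batch 2 (log2 1.31, SE 0.18, adjusted p = 1.31e-04), and Rps27l rose by 1.16 (adjusted p = 2.30e-04). The stalk proteins Rplp0 and Rplp2 fell by 0.87 and 0.96. Ribosomal protein genes have many processed copies, and how reads that fit several of them were counted is not stated, so these values are uncertain. Without WT4, 3 ribosomal proteins were called higher and 9 lower.

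Ucp2, a carrier of the inner mitochondrial membrane, led the genes of at least 30 CPM that had fewer footprints in batch 2. It read 478, 657, 369 and 441 CPM in batch 1 and 106, 69.4, 82.7 and 106 CPM in batch 2 (log2 -2.33, SE 0.20, adjusted p = 6.90e-06). Every batch 2 library lay far below every batch 1 library, the log2 difference was -2.48 in KO cultures and -2.15 in WT cultures, and the call held without WT4 (log2 -2.44, adjusted p = 7.15e-04). Its total RNA went the other way, at 274, 274, 238 and 259 CPM in batch 1 and 453, 412, 458 and 449 CPM in batch 2 (log2 0.75, adjusted p = 7.87e-04). RefSeq places Ucp2 on chromosome 7, 100493337 to 100499629 (GRCm38.p6). It was 1 of 5 of 21 PPAR-gamma and fatty acid handling genes called lower, with none called higher (median -0.16). The others were the lipid droplet coats Plin2 (log2 -0.76) and Plin3 (-0.60), lipoprotein lipase (Lpl, -0.71) and the mitochondrial fatty acid importer Cpt1a (-0.53). Without WT4, 1 of the list, Ucp2, was called lower.

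Iron handling genes moved in both directions. Ferroportin (Slc40a1), the only known exporter of iron from cells, read 64.1, 41.3, 29.2 and 29 CPM in batch 1 and 17.6, 27.3, 26 and 7.04 CPM in batch 2 (log2 -1.84, SE 0.27, adjusted p = 2.15e-04), with no overlap between batches and a call that held without WT4 (log2 -1.48, adjusted p = 0.0153). Ncoa4, which delivers ferritin to the lysosome, fell by 0.84 (adjusted p = 3.72e-04), the haem transporter Slc48a1 by 0.84 (adjusted p = 0.0205), the ferrireductase Steap3 by 0.79 (adjusted p = 0.00640) and the phagosomal metal transporter Slc11a1 by 0.54 (adjusted p = 0.0498). Ferritin light chain (Ftl1), which stores iron, rose by 0.80 (adjusted p = 8.76e-04), though it too has processed copies. With Lcn2, which also counts as a neutrophil gene, 2 of 15 tested iron genes were called higher and 5 lower (median 0.03), with 1 and 4 without WT4 and 7 and 3 without KO1.

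Adhesion and uptake receptors fell more often than they rose. Of 25 integrins and adhesion genes, 6 were called lower and 1 higher (median -0.37), where 6.58% of all tested genes were called lower, with 4 called lower without WT4 and 4 called higher without KO1. Integrin beta 3 (Itgb3), a vitronectin receptor subunit, read 49.3, 32.6, 29.2 and 39.4 CPM in batch 1 and 6.82, 16.8, 8.03 and 9.68 CPM in batch 2 (log2 -2.12, SE 0.30, adjusted p = 1.76e-04), with no overlap. Integrin beta 2 (Itgb2), the shared subunit of leukocyte integrins, fell by 0.61 (adjusted p = 0.00368) and the tetraspanin Cd81 by 0.78 (adjusted p = 8.54e-04). Cd47, the signal that keeps macrophages from eating a cell, was the member that rose (log2 1.03, adjusted p = 1.91e-04). Of 24 scavenger and dead-cell uptake receptors, 7 were called lower and 2 higher (median -0.13), with 3 lower and 1 higher without WT4 and 4 lower without WT2. Lrp1, a large endocytic receptor, read 6668, 6873, 6841 and 7136 CPM in batch 1 and 4173, 3878, 4315 and 3039 CPM in batch 2 (log2 -0.94, SE 0.14, adjusted p = 3.26e-04). Mfge8, which bridges dying cells to phagocytes, fell by 1.13 (adjusted p = 4.10e-04), the inhibitory receptor Cd300a by 0.99 (adjusted p = 0.00338) and the signalling adaptor Tyrobp by 0.75 (adjusted p = 0.00180). Scarb1, the HDL receptor, rose by 1.19 (adjusted p = 2.03e-04).

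Genes that mark alternative macrophage activation were called lower in 6 of 19 cases and higher in 2 (median -0.52), with 1 in each direction without WT4 and 4 higher without KO1. The lectins Mgl2 (log2 -2.69), Clec7a (-1.35), Clec10a (-0.67) and Mrc1 (-0.52) fell, and transglutaminase 2 (Tgm2) read 529, 443, 473 and 562 CPM in batch 1 and 198, 243, 166 and 205 CPM in batch 2 (log2 -1.33, SE 0.15, adjusted p = 2.81e-05). The members that rose were Chi3l3 and Tgfbi, an extracellular matrix protein (log2 1.09). Cd5l, a secreted scavenger-family protein that keeps macrophages alive, read 1989, 1355, 1559 and 1705 CPM in batch 1 and 818, 834, 832 and 466 CPM in batch 2 (log2 -1.49, SE 0.15, adjusted p = 6.90e-06). It lay wholly below batch 1 and kept its call without WT4 (log2 -1.27, adjusted p = 2.11e-04).

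Immediate early genes, which respond within minutes to stimulation, were called lower in 5 of 22 cases and higher in 2 (median -0.22), with 1 in each direction without WT4 and 9 lower without KO1. Egr1 fell by 1.74 (adjusted p = 0.0311), Dusp6 by 0.89 (adjusted p = 0.00591) and Myc by 0.92 (adjusted p = 0.0125). Rgs1, which ends chemokine receptor signals, read 246, 189.6, 211 and 254 CPM in batch 1 and 119.6, 117, 99.3 and 42.5 CPM in batch 2 (log2 -1.74, SE 0.24, adjusted p = 3.90e-04). Btg1, an antiproliferative factor, read 54.2, 86.2, 84.3 and 68.4 CPM in batch 1 and 165, 171, 152 and 214 CPM in batch 2 (log2 1.49, SE 0.15, adjusted p = 8.93e-06), with no overlap between batches. Cyclin D2 (Ccnd2), which starts the cell cycle, fell by 2.01 (adjusted p = 2.03e-04), the 1 lower call against 7 higher among 58 cell cycle genes. The cell cycle calls turned without KO1, to 3 higher and 7 lower, and without WT2 or WT3 4 and 3 were called higher. Of 9 osteoclast markers, 3 fell (Itgb3, Atp6v0d2 and Ckb) and 2 rose (Acp5 and Ctsk), and the summed list held 1996 to 2401 CPM in batch 1 and 1160 to 1518 CPM in batch 2. Without WT4, 3 were called lower and none higher.

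The other leading genes that fell were Mcoln3, an endolysosomal cation channel (log2 -2.25, adjusted p = 0.00964), Pcp4l1, a small protein with a calmodulin-binding motif (-2.07, adjusted p = 0.0158), Uqcr11, a subunit of respiratory complex III (-1.73, adjusted p = 0.00228), the protease inhibitor Serpinb6b (-1.71, adjusted p = 0.0187), BC031353 (-1.58, adjusted p = 5.91e-04) and Padi2, which converts arginine to citrulline (-1.56, adjusted p = 0.00558). Without WT4, BC031353 and Pcp4l1 kept their calls, the latter at log2 -1.11, adjusted p = 0.0434. Mcoln3 (log2 -1.33, adjusted p = 0.0547), Serpinb6b (log2 -0.62, adjusted p = 0.311), Padi2 (log2 -0.59, adjusted p = 0.290) and Uqcr11 (log2 -1.73, adjusted p = 0.0660) did not. Uqcr11 read 44.3, 39.3, 94 and 53.9 CPM in batch 1 and 9.38, 10.5, 18.3 and 16.4 CPM in batch 2, a log2 difference of -1.78 in KO cultures and -1.77 in WT cultures. The histone gene Hist1h4h also fell (log2 -1.72, adjusted p = 0.0170), against the direction of 6 other replication-dependent histone genes of 28 tested (median 0.26), among them Hist1h3e (log2 1.56, adjusted p = 9.62e-04). Histone copies share reads, so single histone genes are uncertain. Without WT4, 7 histone genes were called higher and none lower, and without WT3 3 were called higher.

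The lysosome and the cytoskeleton changed without 1 direction. Of 47 lysosomal genes, 8 were called higher and 6 lower (median -0.10). Cathepsin L (Ctsl) read 1726, 1735, 2158 and 1923 CPM in batch 1 and 3806, 2915, 4537 and 6392 CPM in batch 2 (log2 1.43, SE 0.17, adjusted p = 4.34e-05), cathepsin C (Ctsc), which activates granule proteases, rose by 1.32 (adjusted p = 2.30e-04), and the membrane proteins Laptm5 and Cd68 fell by 0.79 and 0.56. Tartrate-resistant acid phosphatase (Acp5) rose by 2.68, with WT4 apart from all others (4.93, 9.69, 16.2 and 12.4 CPM in batch 1 and 8.24, 11.6, 6.64 and 84.2 CPM in batch 2). Of 54 actin cytoskeleton genes, 13 were called higher and 4 lower (median 0.09). Of the 7 tested subunits of the branching complex Arp2/3, 5 were called higher (Arpc2, Arpc3, Arpc4, Arpc5 and Actr2, log2 0.39 to 0.87), and Arpc1b (log2 0.02) and Actr3 (0.16) were not; without WT4 Arpc2 alone was called. Also called higher were the tropomyosins Tpm1, Tpm3 and Tpm4. Actin itself (Actb) fell by 0.68 (adjusted p = 0.00302), talin (Tln1) by 0.72 (adjusted p = 0.00462), and the GTPase Rac1 read 872, 615, 823 and 855 CPM in batch 1 and 402, 369, 455 and 389 CPM in batch 2 (log2 -1.03, SE 0.15, adjusted p = 1.87e-04), wholly below batch 1. Without WT4, 3 actin genes were called in each direction (8 lower without KO1), and 4 lysosomal genes higher and 5 lower. Of 32 antioxidant genes, 6 were called higher and 3 lower, led by peroxiredoxin 5 (Prdx5, log2 1.24, adjusted p = 7.93e-05). Their median was 0.40, and -0.25 without WT4, where 1 was called higher and 5 lower. Without KO1, 13 antioxidant genes were called higher.

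**Figure D3:**
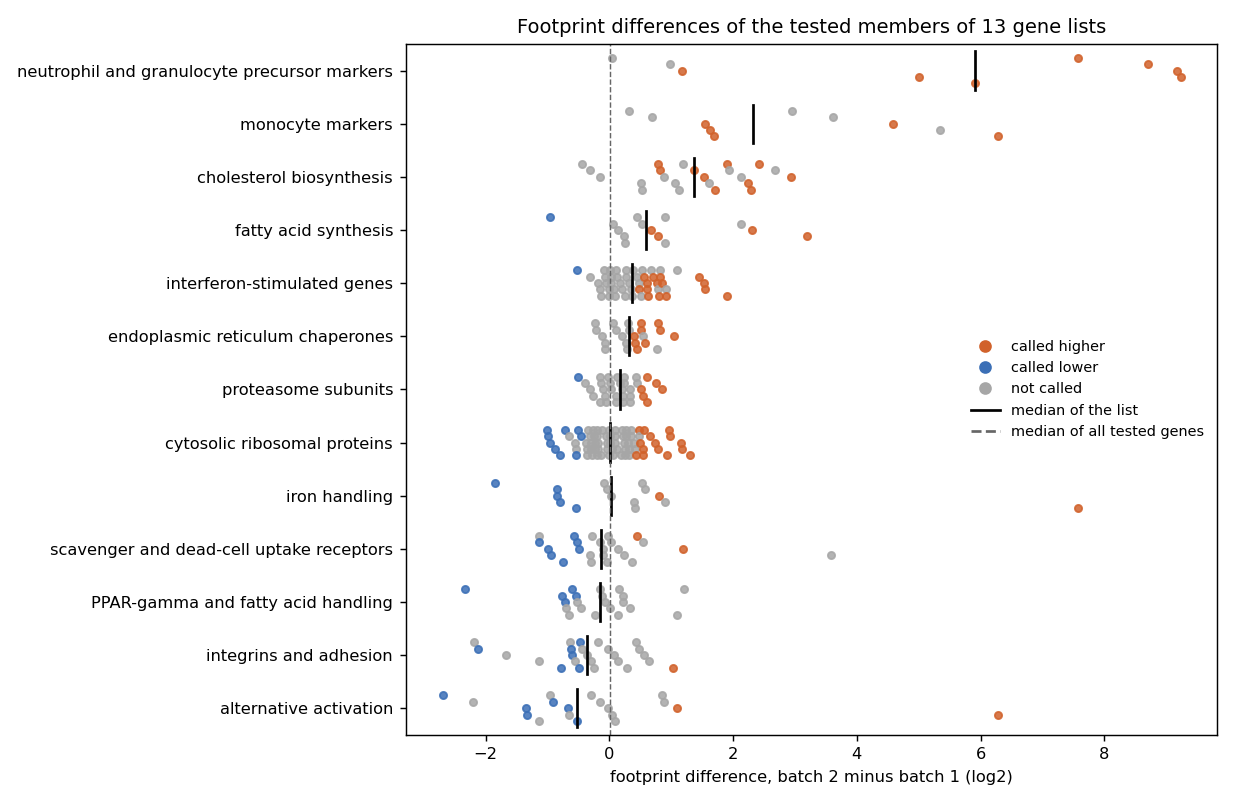
Footprint difference, batch 2 minus batch 1 on the log2 scale, of the tested members of 13 gene lists, with 1 point per gene (orange called higher, blue called lower, grey not called), a black bar at each list's median and a dashed line at the median of all tested genes. The medians of the neutrophil markers (5.91), monocyte markers (2.32) and cholesterol genes (1.37) lie furthest to the right, and ribosomal proteins have called genes on both sides of 0.

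Total RNA from the same cultures gave the RNA side of each difference. In total RNA, 1459 of 11071 genes were called higher (13.2%) and 1155 lower (10.4%); with library totals alone as scaling, 44.3% of the called RNA genes were higher, against 55.8% with the scaling used. A test of the difference in footprints relative to the difference in RNA, over 8737 genes, called 703 higher (8.05%) and 701 lower (8.02%), and with each culture as a block 1213 and 1308. The CDS was counted for footprints and the counted region of RNA is not stated, so only the change of the ratio within a gene is read. Of the 1228 genes called in footprints, 308 were called in RNA in the same direction and 107 in the opposite one. Of all 8737 genes tested in both, 2286 were called in RNA in either direction. Across these 8737 genes the log2 differences in footprints and RNA correlated at 0.51 (Pearson) and 0.21 (Spearman). Of the 1228, 599 were called in the test of the ratio, which contains the footprint difference itself. Of 23 cholesterol genes tested relative to RNA, none was called higher and 1 was called lower. Of 50 interferon-stimulated genes, 24 were called higher and 1 lower in RNA, with 4 called higher and 8 lower relative to RNA.

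Several genes changed footprints against their RNA. For Ucp2 the ratio fell by 3.07 on the log2 scale (adjusted p = 2.16e-06), with RNA up and footprints down. Rab1, a GTPase that directs vesicles from the reticulum to the Golgi, read 214, 169, 139 and 173 CPM in batch 1 and 435, 495, 400.4 and 697 CPM in batch 2 in footprints (log2 1.61, SE 0.18, adjusted p = 5.45e-05) and 233, 214, 246 and 240.2 CPM in batch 1 and 177, 209, 148 and 241 CPM in batch 2 in RNA (log2 -0.17, adjusted p = 0.393), so its batches separated in footprints and not in RNA (ratio log2 1.80, adjusted p = 2.52e-04). Stard3nl, a tether between the reticulum and late endosomes, read 18.1, 24, 29.2 and 22.8 CPM in batch 1 and 52.9, 55.7, 61.2 and 53.7 CPM in batch 2 in footprints (log2 1.29, SE 0.21, adjusted p = 5.57e-04), while its RNA fell (log2 -0.52, adjusted p = 0.00233; ratio log2 1.81, adjusted p = 3.32e-05). Suz12, a core subunit of the Polycomb repressor PRC2, read 31.2, 37.2, 25.9 and 33.2 CPM in batch 1 and 99.5, 116, 95.2 and 79.5 CPM in batch 2 in footprints (log2 1.40, SE 0.19, adjusted p = 1.31e-04), with an RNA difference of log2 -0.29, adjusted p = 0.0586. The histone deacetylase Hdac2 (log2 1.66, adjusted p = 4.32e-04), the RUNX partner Cbfb (log2 1.60, adjusted p = 5.02e-04), the tubulin chaperone Tbca (log2 1.60, adjusted p = 2.52e-04), Zfand6 (log2 1.59, adjusted p = 3.65e-05) and Rps15a (log2 1.60, adjusted p = 4.98e-05) also rose relative to RNA. In footprints, each of these genes kept the sign of its difference without WT4, with Rab1 at log2 1.05. Their ratios to RNA without WT4 are not given here.

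In the other direction, the tumour suppressor Trp53 fell in footprints (log2 -0.78, adjusted p = 0.00511) while its RNA rose (log2 1.01, adjusted p = 9.47e-04), a ratio difference of log2 -1.78, adjusted p = 5.55e-05. Its footprints were 145, 181, 162 and 154 CPM in batch 1 and 116, 108, 95.7 and 79.8 CPM in batch 2. Nr1h2 (log2 -1.86, adjusted p = 4.46e-04), the import-pore subunit Tomm6 (log2 -1.80, adjusted p = 3.65e-05), D4Ertd22e (log2 -1.72, adjusted p = 2.28e-04) and Hist1h4h (log2 -2.36, adjusted p = 0.00667) had the same pattern of lower footprints with RNA that was not lower. Without WT4 none of these 5 was called in footprints, Trp53 at log2 -0.44, adjusted p = 0.268, and Hist1h4h and Tomm6 were not called without KO1 either. Ecm1, a secreted matrix protein, had footprints that were not called (log2 0.18, adjusted p = 0.498), with RNA that rose (log2 2.06, adjusted p = 7.49e-05), and Gm20594 was not called in footprints either (log2 -2.16, adjusted p = 0.134) and has a ratio difference of log2 -7.41, adjusted p = 0.00490. Slc40a1 fell further in RNA than in footprints, by 3.14 against 1.84, so its ratio was higher (log2 1.31, adjusted p = 0.0164). Rac1 RNA rose (log2 0.31, adjusted p = 0.0189) while its footprints fell, a ratio difference of log2 -1.33, adjusted p = 7.75e-05. Over all genes tested relative to RNA, 8.05% were called higher and 8.02% lower. Among the lists, 6 of 23 chaperones of the reticulum were called higher relative to RNA and 1 lower. Of 33 proteasome subunits 11 were called higher and 1 lower, and of 75 ribosomal proteins 14 in each direction. For replication-dependent histones, 18 of 44 were called higher in RNA, none lower, and 6 of 28 were called lower relative to RNA, none higher.

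**Figure D4:**
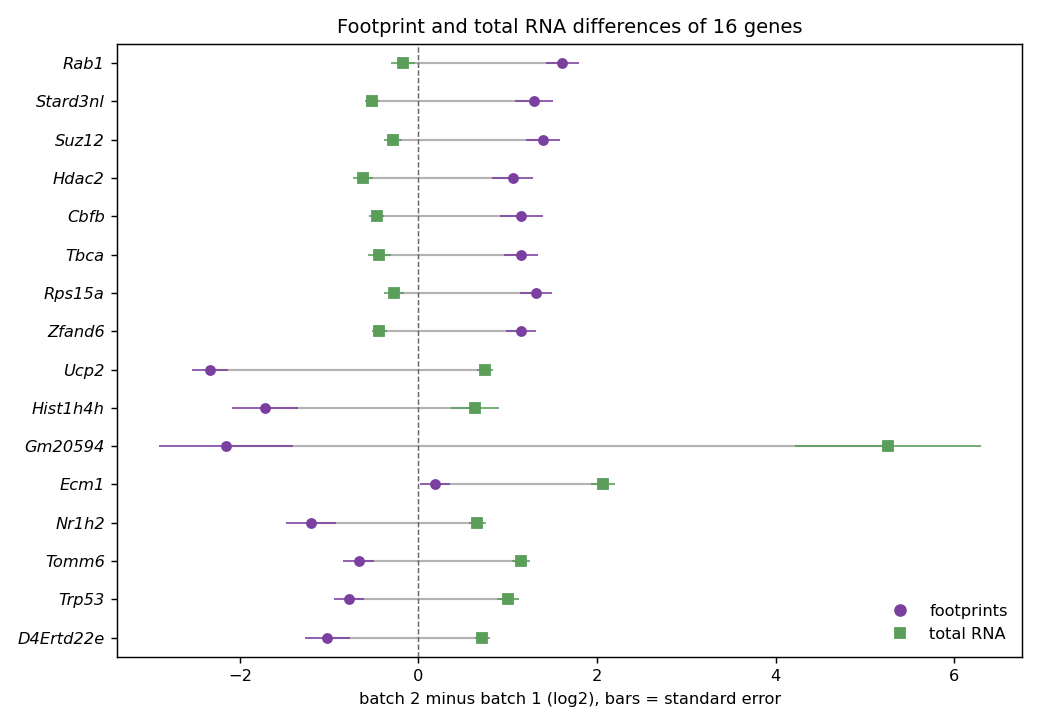
Differences between batch 2 and batch 1 on the log2 scale in footprints (purple circles) and total RNA (green squares) for the 16 genes with the largest called differences of footprints relative to RNA, 8 in each direction, with bars for the standard error. The first 8 genes have footprints right of 0 and RNA left of it, and among the other 8 Ucp2 has the lowest footprint value.

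The batch difference was also compared between genotypes. An interaction term of batch and genotype was called for 158 of the 8740 genes (1.81%), and for 27 of the 1228 genes called for batch. Mmp8 differed by log2 0.90 in KO cultures and 5.77 in WT cultures (interaction adjusted p = 0.00454). Irak3 differed by 0.37 in KO cultures and 2.70 in WT cultures (adjusted p = 0.00211) and Lyz2 by 0.51 in KO cultures and 1.82 in WT cultures (adjusted p = 0.00355). Ccr2 had the reverse order, with 3.11 in KO cultures and 0.97 in WT cultures (adjusted p = 0.00314). Among genes that fell, Serpinb6b (-0.64 in KO cultures and -2.75 in WT cultures), Padi2 (-0.58 in KO cultures and -2.41 in WT cultures), Pcp4l1, Rgs1, Atp6v0d2 and Abcg1 fell further in WT cultures, and Rab1 rose further there, each called in the interaction test. These contrasts stand on KO1 alone in batch 1 and on WT4 alone in batch 2, so the genotype and a single culture cannot be told apart. Cyp51, Fads2, Ucp2 and Manf, whose values by genotype are close, were not called in the interaction test.

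**Figure D5:**
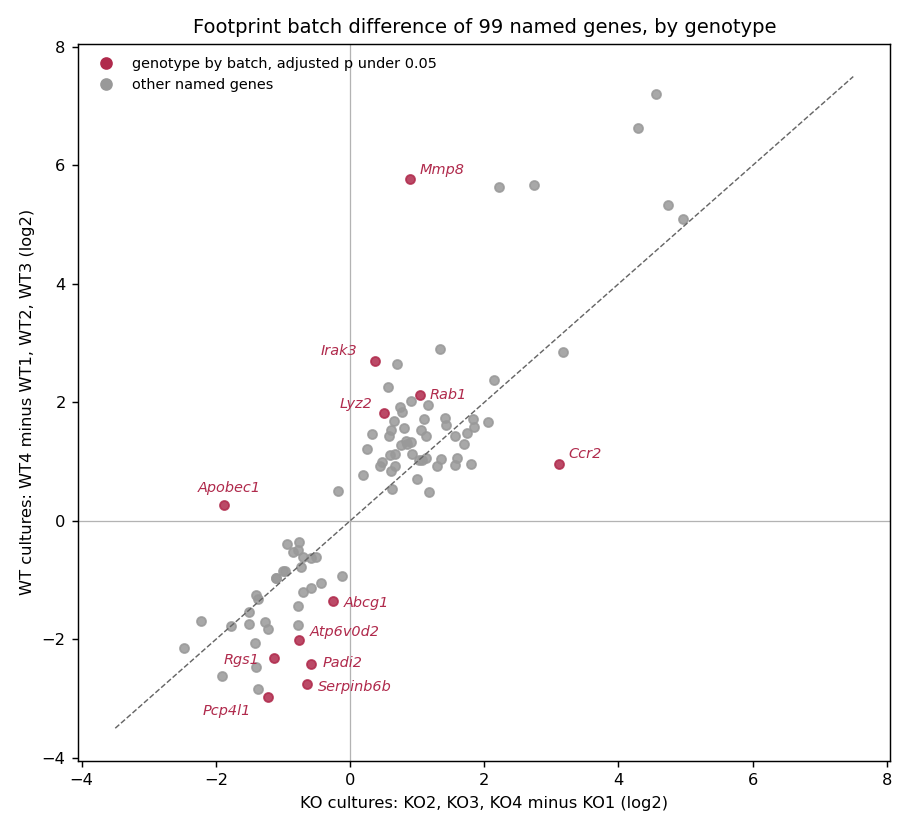
Footprint difference between batches, on the log2 scale, within KO cultures (horizontal, mean of KO2 to KO4 minus KO1) and within WT cultures (vertical, WT4 minus the mean of WT1 to WT3) for the 99 genes chosen for description, with genes called in the interaction of batch and genotype in red and a dashed line of equal differences. Mmp8 (0.90 and 5.77) lies far above the line and Ccr2 (3.11 and 0.97) far below it.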

How the data were processed

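Footprints and total RNA of the same cultures were deposited as whole-number counts per gene symbol, 1 file per library, and the authors did not normalize them. Per the file names, footprints were counted over the CDS; the region counted for RNA is not stated. Per the submitters' processing notes, build mm10 and the tools Bowtie 1.1.2, Cufflinks 2.2.1, TopHat2 2.1.0, HTSeq, Trim Galore, DESeq2 and DESeq are named, with no role given. Strandedness, the annotation release and the treatment of reads with several alignments are not given in the sources used here, so genes with near-identical copies are uncertain. The authors' 2 deposited tables of comparisons were not used here.

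Genes absent from a file counted as 0, and genes on X or Y (1041 of 23337 symbols) were left out. Symbols unmatched to RefSeq by symbol or synonym (250) were kept, their chromosome unknown. HTSeq's summary lines stayed out of library sizes. Counts were fitted in R 4.3.3 with edgeR 4.0.16 (TMM, robust quasi-likelihood test, genes kept by filterByExpr at a minimum count of 10, genotype and batch as terms, Benjamini-Hochberg threshold 0.05), after tests on simulated data. Footprints relative to RNA were tested as the interaction of batch and molecule over 16 libraries. Each culture's footprint and RNA libraries share a culture name in the labels, and the deviations of such pairs from their group means correlated at 0.058 to 0.55 across genes. Log2 differences within a genotype use log2 CPM with a prior count of 2. Exact intervals and the floor of 3 counts cover counting error only. Depth, given with the libraries, limits precision most in WT2, where 3 counts are 9.20 CPM. Alternatives were DESeq2 1.42.0, limma 3.58.1 voom, other scalings, filters, models, samples and thresholds.

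Genes were named by a rule: in each direction the 12 called genes with the largest difference among those of at least 30 mean CPM and no overlap between batches, the 2 called genes of smallest p in each list, and the 8 genes of largest difference relative to RNA in each direction. Other called list members were named after their values were seen. A few genes that these rules name are not reported here. The comparison, the lists and the rule were chosen with earlier results of these data known. Promoter sequences are RefSeq's, GRCm38.p6; 7103 of the 8740 tested genes had one.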

Additional observations from a re-analysis of the deposited data

Results flagged for a closer look

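In 197 groups of 4 libraries (the 99 genes chosen for description, in each batch, less Ngp in batch 1, which was at 0 throughout), 19 times a single library stood apart from the other libraries of its batch by Dixon's criterion, which chance alone meets in about 1 of 20 groups. In 3 of the 19, S100a9, Chi3l3 and Lcn2 in batch 1, the other libraries were at 0, so that any count meets the criterion, which leaves 16 to set beside that rate. WT4, the only wild-type library of batch 2, accounted for 11 of the 16. Its footprints were above the KO libraries of batch 2 for Mmp8 (274 CPM), Irak3 (206 CPM), Ugt1a7c (523 CPM), Ifitm6 (87.4 CPM), Acp5 (84.2 CPM), Dmxl2 (64.2 CPM), Lyz2 (46650 CPM), S100a8 (110.0 CPM) and Apobec1 (104 CPM), the gene deleted in the others, and below them for Ccr2 (70.7 CPM) and Cd5l (466 CPM). In batch 1, KO1 stood apart for S100a9 (1.64 CPM, its 1 count), Chi3l3 (3.28 CPM) and Tap2 (271 CPM), WT1 for Hist1h4h (167 CPM) and Lcn2 (1.02 CPM), and WT2 for Dmxl2 (16.2 CPM). KO4 stood apart in batch 2 for Eif6 (61.2 CPM) and KO3 for Vwf (63.1 CPM).

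The batch difference itself differed between WT and KO cultures for 12 of the genes described, by the interaction term of edgeR's model. The adjusted p was 0.00454 for Mmp8, 0.00211 for Irak3, 0.00355 for Lyz2 and 0.0448 for Rab1, which rose further in WT cultures, and 0.00314 for Ccr2, which rose further in KO cultures. It was 0.0165 for Pcp4l1, 0.0344 for Rgs1, 0.00792 for Serpinb6b, 0.0131 for Padi2, 0.0253 for Atp6v0d2 and 0.0361 for Abcg1, which fell further in WT cultures. For Apobec1 it was 0.0271, with KO1 above the KO libraries of batch 2 and WT4 close to the WT libraries of batch 1.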

How the results depend on the processing

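No gene named by the rule and called in footprints changed sign there under any alternative run, while the uncalled differences of Ecm1 and Apobec1 did. Among called genes named after their values were seen, Scd2 changed sign without WT4 (log2 -0.16). Such genes were not followed singly through the other alternatives. Of all called genes that could be tested, 1217 of 1226 kept their sign in KO cultures alone and 1194 of 1201 without WT4. Both settings set KO2, KO3 and KO4 against KO1, so they are not separate checks. The balance of calls turned in footprints without WT4 and in KO cultures alone, and in total RNA with library totals alone (1176 higher and 1479 lower). Footprint counts of 653 higher and 575 lower stayed within 1.5 times under DESeq2, other scalings, no filter or a higher one, no genotype term, all 12 libraries, WT cultures alone and X and Y kept. They were 282 and 212 at an adjusted p of 0.01, 321 and 287 with limma voom, 113 and 122 in KO cultures alone and 79 and 43 against a difference of 1.5-fold. Leaving out 1 culture gave 156 to 829 higher and 195 to 648 lower, with WT4 giving the lowest counts. Total RNA counts of 1459 and 1155 were 626 and 360 at 0.01, 542 and 264 with voom (67.3% of calls higher), 139 and 108 in KO cultures alone, 2320 and 2055 in WT cultures alone and 112 and 41 against 1.5-fold, and 932 higher with a mean of at least 30 CPM. Leaving out 1 culture gave 678 to 1744 and 572 to 1415, and without WT3 969 and 730. Footprints relative to RNA (703 and 701) were 324 and 312 at 0.01 and 242 and 246 with voom, with 211 to 705 and 206 to 705 when 1 culture was left out (without KO1 453 and 455). The interaction count of 158 was 85 without WT1, 419 without KO3, and has no value without KO1 or WT4. The cause of these moves was not tested, apart from the stricter thresholds and the smaller samples that define them.

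With each culture as a replicate block, footprints relative to RNA gave 1213 higher and 1308 lower. KO2 with WT2 and KO3 with WT3 share a number in the titles across genotypes, and their deviations correlated at 0.011 and 0.037. Footprint and RNA libraries of the same culture correlated as low as 0.058, so these values cannot show whether the number stands for a shared origin. The labels do not say what that number stands for. With that number as a replicate block, 6 genes were higher and 4 lower in footprints, and 0 and 0 in total RNA by edgeR, where 1104 genes had an unadjusted p under 0.05. Of 96 described genes called in footprints, 43 kept their call whichever culture was left out. Batch 1 depth limits what can be read of rare granule proteins: 0 counts there allow up to 0.756 CPM.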
